A study of Homo sapiens with 12 samples.

Results

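The genes described here are 6 transcription factors that can start epithelial-mesenchymal transition (EMT), SNAI1, SNAI2, TWIST1, ZEB1, ZEB2 and PRRX1, and 4 genes that hold cells in the epithelial state, GRHL2, OVOL1, ESRP1 and ESRP2. They were chosen by name and matched by symbol, and all 10 were found among the 58051 genes counted. RNA was sequenced from FaDu, a line from a squamous carcinoma of the hypopharynx, and Cal27, a line from a squamous carcinoma of the tongue, both labelled as wild type. For each line, parental cells were compared with AfaR cells, made resistant to the pan-ERBB inhibitor afatinib, and with ErlR cells, made resistant to the EGFR inhibitor erlotinib. Each of the 6 groups had 2 libraries labelled as biological replicates, so 12 libraries were analysed. Each resistant model is a single population selected by stepwise rising doses of its drug. The resistant stocks were kept under drug and taken off it for a day before experiments, so selection and recent drug exposure cannot be told apart. AfaR and ErlR cells of a line were compared with the same 2 parental libraries, and their comparisons are therefore not independent of each other.

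In EMT, epithelial cells lose junctions and polarity and take on a migratory, mesenchymal character. SNAI and ZEB proteins bind E-box motifs through zinc fingers and repress epithelial genes such as CDH1. TWIST1 is a basic helix-loop-helix factor and PRRX1 a homeobox factor. GRHL2 and OVOL1 keep epithelial genes active or ZEB genes silent, and ESRP1 and ESRP2 direct the splicing of epithelial isoforms. ZEB1 and ZEB2 are also held down by microRNAs of the miR-200 family and by miR-205, whose own genes the ZEB proteins repress. Squamous carcinomas often show only part of this programme, with SNAI2 present in cells that keep their keratins.

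Gene counts per library totalled from 16334937 to 23399259. Levels are given as counts per 1000000 gene counts after TMM scaling between libraries (CPM). The summed level of 8 markers of squamous epithelium was between 4027 and 13341 CPM in the 10 libraries other than Cal27 AfaR. It was 1089 and 1207 CPM in the Cal27 AfaR libraries, so the squamous identity of the label was weakest there. The summed level of 8 fibroblast markers was 315 and 326 CPM in Cal27 AfaR and between 4.66 and 41.7 CPM elsewhere. In Cal27 AfaR 8 of 8 fibroblast markers held at least 1 read. COL1A1 averaged 269, LUM 33.5, PDGFRB 12.3 and COL1A2 4.11 CPM there, against 30.4, 0.116, 1.63 and 2.18 CPM in Cal27 parental. The others were not higher than in Cal27 parental: COL3A1 (0.815 against 0.903), THY1 (0.394 against 0.524), DCN (0.058 against 0.0582) and PDGFRA (0.027 against 0.146 CPM). The summed level of 4 leucocyte markers was between 9.20 and 16.7 CPM in all libraries. CD14 lay between 6.2 and 12.6 CPM and PTPRC between 1.73 and 3.68 CPM, LYZ reached 2.23 CPM, and CD3E was at 0 in 5 of 6 groups. Of 3 endothelial markers, CDH5 ranged from 1.09 to 35.8 CPM and averaged 32.1 CPM in Cal27 AfaR and 30.5 CPM in Cal27 parental. VWF and PECAM1 reached 3.33 and 2.08 CPM. In bulk RNA, fewer cells of a type and less RNA per cell cannot be told apart, and the part of these markers in the results below was not tested.

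A gene passed at a Benjamini-Hochberg adjusted p under 0.05 from edgeR's quasi-likelihood test, adjusted over all genes tested. PRRX1 had too few counts for the test in every comparison, which leaves 9 members tested. In Cal27 AfaR all 9 passed, 4 higher and 5 lower than in parental cells, where 37.6% of all genes passed, 19.5% higher and 18.2% lower. In Cal27 ErlR 2 of 9 passed, SNAI2 higher and SNAI1 lower, beside 27.6% of all genes, 12.3% higher and 15.3% lower. In FaDu AfaR 2 of 9 passed, TWIST1 higher and SNAI1 lower, beside 17.9%, of which 10.4% higher and 7.5% lower. In FaDu ErlR 0 of 9 passed edgeR's test, beside 4.18% of all genes, 2.58% higher and 1.6% lower, while 3 had an unadjusted p under 0.05 and DESeq2 passed 1, TWIST1. In the last 3 comparisons the share of members that passed is thus near that of all genes. The median log2 fold change of the 9 members was -2.40 in Cal27 AfaR, 0.42 in Cal27 ErlR, 0.02 in FaDu AfaR and 0.12 in FaDu ErlR, beside medians of all genes between -0.027 and 0.00.

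**Figure D1:**
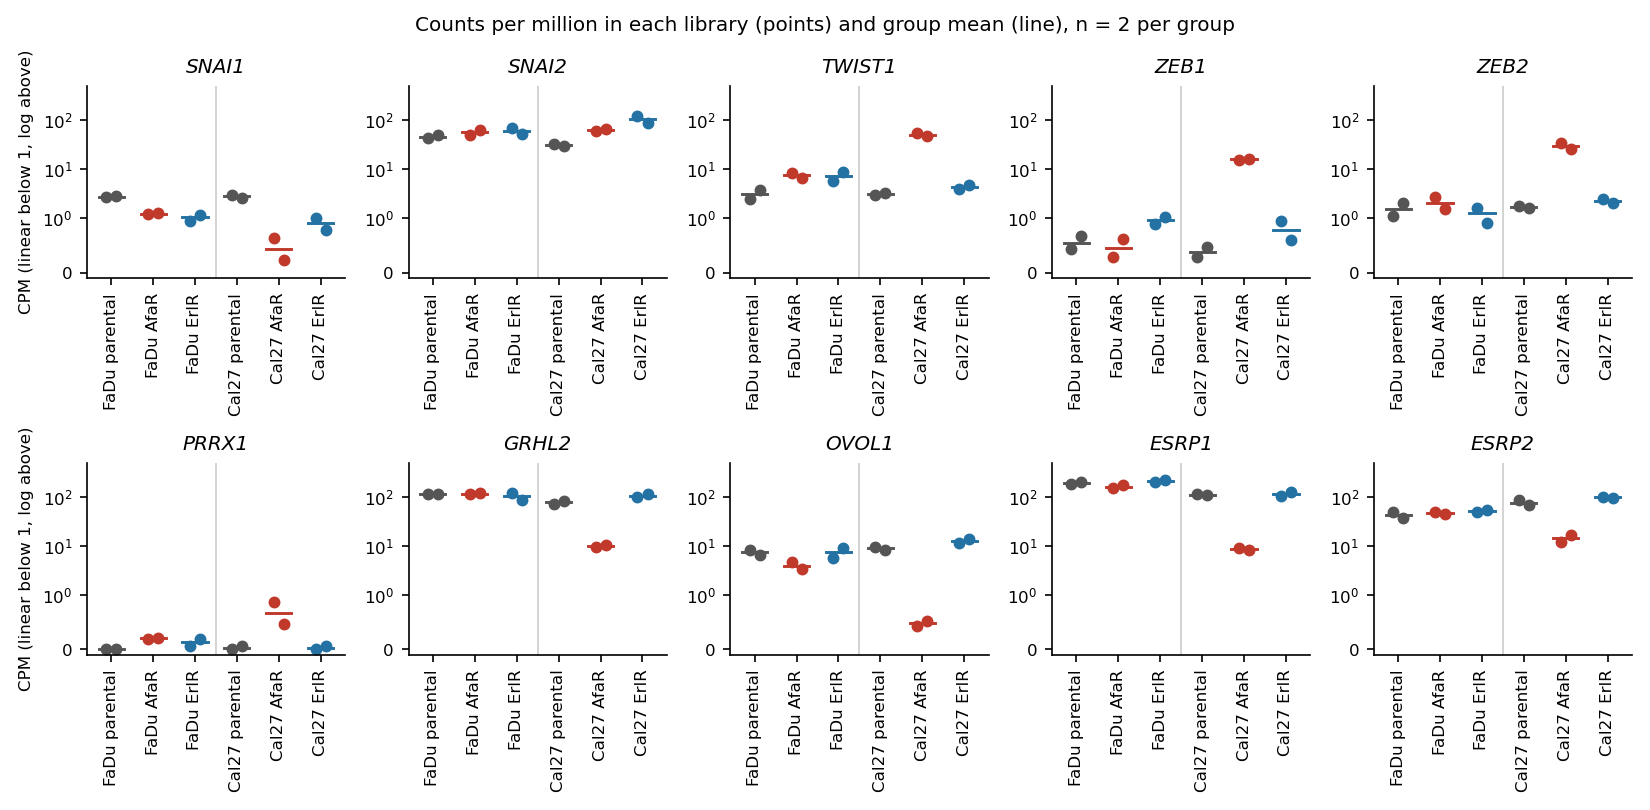
Level of each member in the 12 libraries, in CPM on an axis that is linear below 1 and logarithmic above. Points are libraries and bars the mean of 2. The Cal27 AfaR libraries are highest for TWIST1, ZEB1 and ZEB2 and lowest for SNAI1, GRHL2, OVOL1, ESRP1 and ESRP2, with no overlap with any other library.

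ZEB1 (ENSG00000148516, chromosome 10, 31318495 to 31529814 on GRCh38), a zinc finger repressor of CDH1 and of cell polarity genes, was at 15.4 and 16.4 CPM in the Cal27 AfaR libraries. It was at 0.291 and 0.466 CPM in Cal27 parental and at 0.957 and 0.610 CPM in Cal27 ErlR. In FaDu it was at 0.437 and 0.675 CPM in parental cells, 0.291 and 0.617 CPM in AfaR and 0.894 and 1.05 CPM in ErlR. Outside Cal27 AfaR no library held more than 16 reads of ZEB1, and neighbouring groups overlapped in all but the first step of the order. In Cal27 AfaR the log2 fold change was 5.37 (SE 0.36, edgeR adjusted p = 9.54e-06), a 41.2-fold rise. In Cal27 ErlR the value was 1.01 (SE 0.45, edgeR adjusted p = 0.129), in FaDu AfaR -0.28 (SE 0.57) and in FaDu ErlR 0.79 (SE 0.55), none of which passed.

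ZEB2 (ENSG00000169554, chromosome 2, 144384081 to 144524583), the paralogue of ZEB1 with the same kind of zinc fingers, was at 33.8 and 26.2 CPM in Cal27 AfaR. The other 10 libraries held between 0.915 CPM, in FaDu ErlR, and 2.67 CPM, in FaDu AfaR. Cal27 AfaR stood apart from every other group, and the 3 FaDu groups overlapped. Its log2 fold change in Cal27 AfaR was 4.12 (SE 0.25, edgeR adjusted p = 6.33e-06), or 17.4-fold. In the other comparisons with parental cells it lay between -0.29 and 0.39 and did not pass.

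The sequences through which the miR-200 family and miR-205 recognise ZEB transcripts are shown because they mark a documented point of control of these members. The microRNAs themselves were not measured, since the RNA was poly(A)-selected. The mature forms, from RefSeq on GRCh38.p14, fall into 3 groups by seed, the bases 2 to 8 given in capitals.
hsa-miR-200b-3p: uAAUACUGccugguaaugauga
hsa-miR-200c-3p: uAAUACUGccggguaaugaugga
hsa-miR-429: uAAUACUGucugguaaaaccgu
hsa-miR-200a-3p: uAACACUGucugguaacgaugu
hsa-miR-141-3p: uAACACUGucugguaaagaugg
hsa-miR-205-5p: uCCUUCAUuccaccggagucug

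The 3′ UTR of the ZEB1 reference transcript, 2540 bases in GENCODE 44, held 6 matches to the first seed (CAGTATT, counted on the transcript strand), 3 to the second (CAGTGTT) and 1 to that of miR-205-5p (ATGAAGG). The 3′ UTR of ZEB2, 5370 bases, held 5, 4 and 0. Of 2546 genes with a 3′ UTR of 2032 to 3175 bases, near that of ZEB1 in length, 27.2% held at least 1 match to the first seed, as did 46.7% of 1209 genes with one of 4296 to 6706 bases, near that of ZEB2. The density was 2.36 matches per kb in ZEB1 and 0.93 in ZEB2, beside 0.12 over the 3′ UTRs of 18780 genes. The 3′ UTRs of SNAI1 and TWIST1 held 0 matches to any of the 3 seeds and that of SNAI2 held 1, to the first seed. A match is a stretch of letters and not a shown site. The 11 stretches with a match to the first seed, given in capitals, are printed with their position on GRCh38.
ZEB1 chr10:31527620-31527640, plus strand: tgttttatcttatCAGTATTa
ZEB1 chr10:31527714-31527734, plus strand: gctaaatccgcttCAGTATTt
ZEB1 chr10:31528143-31528163, plus strand: aagtgccatttctCAGTATTt
ZEB1 chr10:31528494-31528514, plus strand: gatttttacctatCAGTATTa
ZEB1 chr10:31528564-31528584, plus strand: tcttcaaacctggCAGTATTa
ZEB1 chr10:31529215-31529235, plus strand: ttttcatcattatCAGTATTt
ZEB2 chr2:144389052-144389072, minus strand: cactaccatacatCAGTATTt
ZEB2 chr2:144388989-144389009, minus strand: cactacaatgcatCAGTATTa
ZEB2 chr2:144388631-144388651, minus strand: gaagcacccatgtCAGTATTa
ZEB2 chr2:144388546-144388566, minus strand: tcattaattttgtCAGTATTa
ZEB2 chr2:144388415-144388435, minus strand: atactgtagtgtaCAGTATTa

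Host transcripts of some of these microRNAs are polyadenylated and were counted. MIR205HG, the host of miR-205, was at 130 and 111 CPM in Cal27 parental, 7.01 and 4.35 CPM in Cal27 AfaR and 58.7 and 99.3 CPM in Cal27 ErlR, and between 31.5 and 64.5 CPM in the FaDu libraries. In Cal27 AfaR it fell by 4.40 on the log2 scale (SE 0.30, edgeR adjusted p = 1.08e-05) and did not pass in the other 3 comparisons with parental cells. MIR200CHG, the host of miR-200c and miR-141, held 1 read in each Cal27 AfaR library, 6 and 2 in Cal27 parental and at most 37 in any library, and was not tested in Cal27. ZEB1-AS1, transcribed from the opposite strand beside ZEB1, rose in Cal27 AfaR by a log2 fold change of 1.74 (SE 0.43, edgeR adjusted p = 0.0116) and in FaDu AfaR by 1.92 (SE 0.43, edgeR adjusted p = 0.0182), and in FaDu AfaR ZEB1 itself did not pass. Both ZEB1-AS1 and SNAI3-AS1, which rose by 2.12 in Cal27 AfaR (SE 0.57, edgeR adjusted p = 0.0163), lost that call without Cal27 parental replicate 1 or AfaR replicate 1, and without AfaR replicate 2 only 1 of these 2 calls, SNAI3-AS1, remained. In FaDu AfaR the ZEB1-AS1 call was lost without parental replicate 1 or AfaR replicate 2. ZEB1 and ZEB1-AS1 share 366 exon bases. The strand setting of the counting was not given in the sources used here, so reads on those bases cannot be assigned to either gene, but ZEB1-AS1 held at most 39 reads in Cal27 AfaR against 286 and 282 for ZEB1. ZEB2 shares 1250 exon bases with ZEB2-AS1, which held at most 2 reads in any library, and the pseudogene SNAI1P1 held 0 reads in all 12.

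TWIST1 (ENSG00000122691, chromosome 7, 19020991 to 19117672), an activator of mesenchymal genes, was at 54.1 and 46.9 CPM in Cal27 AfaR, 3.03 and 3.26 CPM in Cal27 parental and 3.89 and 4.70 CPM in Cal27 ErlR. In FaDu it was at 2.47 and 3.79 CPM in parental cells, 8.29 and 6.70 CPM in AfaR and 5.81 and 8.75 CPM in ErlR. All 8 resistant libraries lay above both parental libraries of their line, and the parental lines overlapped. The rise in Cal27 AfaR was 16.0-fold, with a log2 fold change of 4.00 (SE 0.20, edgeR adjusted p = 2.83e-06). In FaDu AfaR it rose by a log2 fold change of 1.24 (SE 0.31, edgeR adjusted p = 0.0266). In FaDu ErlR the value was close to that, 1.21 (SE 0.31, edgeR adjusted p = 0.0635), and did not pass. In Cal27 ErlR it was 0.43 (SE 0.21, edgeR adjusted p = 0.161).

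SNAI2 (ENSG00000019549, chromosome 8, 48917690 to 48921740), which encodes the E-box repressor Slug, was at 124 and 88.2 CPM in Cal27 ErlR, 59.2 and 66.1 CPM in Cal27 AfaR and 32.9 and 30.0 CPM in Cal27 parental. In FaDu it was at 43.7 and 49.2 CPM in parental cells, 49.8 and 62.9 CPM in AfaR and 68.1 and 53.0 CPM in ErlR. The 3 Cal27 groups did not overlap, and the AfaR and ErlR groups of FaDu overlapped each other but not the parental libraries. SNAI2 was the member that rose most in Cal27 ErlR, by a log2 fold change of 1.73 (SE 0.18, edgeR adjusted p = 2.73e-04) or 3.32-fold. In Cal27 AfaR it rose by 1.00 (SE 0.18, edgeR adjusted p = 0.00205). In FaDu the values were 0.26 in AfaR and 0.37 in ErlR, with edgeR adjusted p-values of 0.280 and 0.229.

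SNAI1 (ENSG00000124216, chromosome 20, 49982999 to 49988886), which encodes Snail, moved the other way. In FaDu it was at 2.72 and 2.86 CPM in parental cells, 1.21 and 1.27 CPM in AfaR and 0.958 and 1.18 CPM in ErlR. In Cal27 it was at 3.03 and 2.56 CPM in parental cells, 0.647 and 0.232 CPM in AfaR and 1.02 and 0.794 CPM in ErlR. Every resistant library lay below both parental libraries of its line, at between 4 and 31 reads against between 44 and 56. In Cal27 AfaR it fell by 2.63 on the log2 scale (SE 0.52, edgeR adjusted p = 0.00370). It fell by 1.64 in Cal27 ErlR (SE 0.48, edgeR adjusted p = 0.0313) and by 1.18 in FaDu AfaR (SE 0.34, edgeR adjusted p = 0.0413), and the value in FaDu ErlR was -1.39 (SE 0.36, edgeR adjusted p = 0.0616). Of 13995 genes compared by level, 2.58% were higher in every resistant library than in each parental library of its line, as TWIST1 and SNAI2 were, and 2.17% were lower in every one, as SNAI1 was.

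PRRX1 (ENSG00000116132, chromosome 1, 170662728 to 170739419), a homeobox factor of mesenchyme, held 16 and 8 reads in the Cal27 AfaR libraries. It held 4 and 5 reads in FaDu AfaR, 1 and 3 in FaDu ErlR and 0 or 1 in each of the other 6 libraries. The highest libraries were those of Cal27 AfaR, at 0.863 and 0.464 CPM. At these counts no fold change is given.

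Both epithelial transcription factors passed as lower in Cal27 AfaR and did not pass in the other 3 comparisons with parental cells. GRHL2 (ENSG00000083307, chromosome 8, 101492432 to 101669726), which activates CDH1 and other junction genes, was at 71.0 and 83.1 CPM in Cal27 parental, 9.60 and 10.2 CPM in Cal27 AfaR and 96.7 and 112 CPM in Cal27 ErlR. All 6 FaDu libraries lay between 86.5 and 121 CPM, and the 3 groups overlapped. The fall in Cal27 AfaR was 7.77-fold, with a log2 fold change of -2.96 (SE 0.16, edgeR adjusted p = 3.21e-06). In Cal27 ErlR both libraries were above both parental libraries, with a value of 0.42 (SE 0.14, edgeR adjusted p = 0.0540) that did not pass there but did in 4 of 14 alternatives, DESeq2 among them.

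OVOL1 (ENSG00000172818, chromosome 11, 65787022 to 65797219), a zinc finger factor of epidermal differentiation, was at 9.60 and 8.28 CPM in Cal27 parental, 0.432 and 0.522 CPM in Cal27 AfaR and 11.5 and 14.0 CPM in Cal27 ErlR. In FaDu it was at 8.10 and 6.54 CPM in parental cells, 4.60 and 3.29 CPM in AfaR and 5.56 and 9.15 CPM in ErlR. Cal27 AfaR held 8 and 9 reads, apart from all other groups. The fall was 18.5-fold there, with a log2 fold change of -4.21 (SE 0.31, edgeR adjusted p = 1.68e-05). In FaDu AfaR the value was -0.91 (SE 0.31, edgeR adjusted p = 0.0665), with both libraries below both parental ones, and it passed in 2 of 14 alternatives.

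ESRP1 (ENSG00000104413, chromosome 8, 94641074 to 94707466), which directs epithelial exon choice in genes such as FGFR2 and CD44, was at 113 and 107 CPM in Cal27 parental, 9.06 and 8.12 CPM in Cal27 AfaR and 103 and 128 CPM in Cal27 ErlR. The FaDu levels were 184 and 197 CPM in parental cells, 151 and 172 CPM in AfaR and 197 and 222 CPM in ErlR. Cal27 AfaR stood apart, and Cal27 ErlR overlapped its parental libraries. ESRP1 fell 12.8-fold in Cal27 AfaR, with a log2 fold change of -3.68 (SE 0.17, edgeR adjusted p = 2.20e-06). In the other 3 comparisons its values lay between -0.26 and 0.12 and did not pass.

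ESRP2 (ENSG00000103067, chromosome 16, 68229111 to 68238102), the paralogue with overlapping targets, was at 85.7 and 67.1 CPM in Cal27 parental, 12.0 and 16.8 CPM in Cal27 AfaR and 96.8 and 96.6 CPM in Cal27 ErlR. In FaDu all 6 libraries lay between 37.7 and 54.2 CPM. It fell 5.30-fold in Cal27 AfaR (log2 fold change -2.40, SE 0.19, edgeR adjusted p = 2.27e-05). In the other 3 comparisons its values lay between 0.12 and 0.32 and did not pass. It had the smallest fold change of the 4 epithelial members in Cal27 AfaR. ESRP2 shares 149 exon bases, 2.68% of its own, with NFATC3 on the opposite strand, and whether this bears on its values was not tested.

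**Figure D2:**
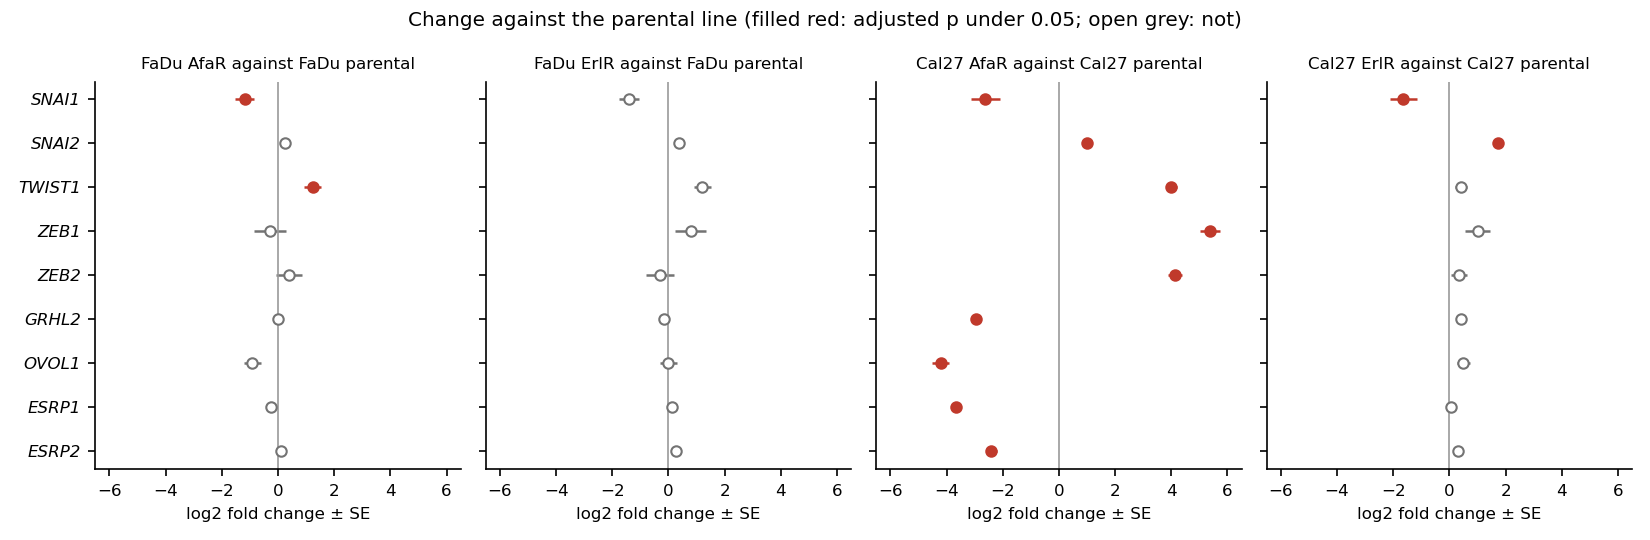
Log2 fold change of the 9 tested members against parental cells in the 4 comparisons, with SE bars that are in places smaller than the point. Filled red points passed at an edgeR adjusted p under 0.05: 9 in Cal27 AfaR and 2, 2 and 0 in Cal27 ErlR, FaDu AfaR and FaDu ErlR.

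Leaving out any 1 of the 4 libraries compared in Cal27 AfaR kept the sign of all 9 members. The log2 values ranged from 5.07 to 5.74 for ZEB1, 3.92 to 4.30 for ZEB2, 3.89 to 4.11 for TWIST1 and 0.92 to 1.07 for SNAI2. They ranged from -3.55 to -2.09 for SNAI1, -3.07 to -2.83 for GRHL2, -4.34 to -4.08 for OVOL1, -3.77 to -3.60 for ESRP1 and -2.66 to -2.19 for ESRP2. In FaDu AfaR both calls were lost when any of the 4 libraries compared was left out. The log2 values there ranged from 0.96 to 1.58 for TWIST1 and from -1.22 to -1.14 for SNAI1. In Cal27 ErlR the SNAI2 call was kept in each of these fits, at 1.46 to 1.98. The SNAI1 call was lost in each, at -1.83 to -1.45. Each such fit leaves 1 library in a group. Where a call is lost, here or elsewhere, the smaller number of libraries and instability of the gene cannot be told apart. Scaling on the ERCC spike-ins in place of TMM moved the median log2 fold change of all genes to 0.487 in FaDu ErlR and 0.181 in FaDu AfaR. With it 5655 genes passed as higher and 92 as lower in FaDu ErlR, in place of 389 and 242, and 2093 and 220 in FaDu AfaR, in place of 1563 and 1132. SNAI2, TWIST1, ESRP1 and ESRP2 then passed as higher in FaDu ErlR, and in FaDu AfaR SNAI1 no longer passed. In Cal27 AfaR and Cal27 ErlR ERCC scaling left the members that passed as they were.

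Whether the AfaR change differed between the lines was tested as an interaction over all 12 libraries. It differed for 7 of 9 members, where 18.6% of all genes passed, 10.5% with a higher and 8% with a lower change in FaDu. For ZEB1, the change in FaDu minus that in Cal27 was -5.62 on the log2 scale (SE 0.64, edgeR adjusted p = 9.85e-05), for ZEB2 -3.71 and for TWIST1 -2.74. For the epithelial members it was 3.44 for ESRP1 (SE 0.20, edgeR adjusted p = 7.36e-07), 3.32 for OVOL1, 3.00 for GRHL2 and 2.54 for ESRP2. SNAI1, at 1.48 (edgeR adjusted p = 0.106), and SNAI2, at -0.71 (edgeR adjusted p = 0.0737), did not pass, though SNAI1 passed without Cal27 AfaR replicate 1 (2.41, edgeR adjusted p = 0.0366) and SNAI2 with DESeq2, without a filter on low counts and with only the compared groups in the fit. The ErlR change differed for 1 of 9, SNAI2, at -1.37 (SE 0.26, edgeR adjusted p = 0.00387), also beside 18.6% of all genes, 9.8% higher and 8.8% lower in FaDu. With ERCC scaling the calls over all genes were 1998 higher and 793 lower for AfaR, in place of 1713 and 1300, and 3765 and 283 for ErlR, in place of 1592 and 1429. The same 7 members still passed for AfaR.

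**Figure D3:**
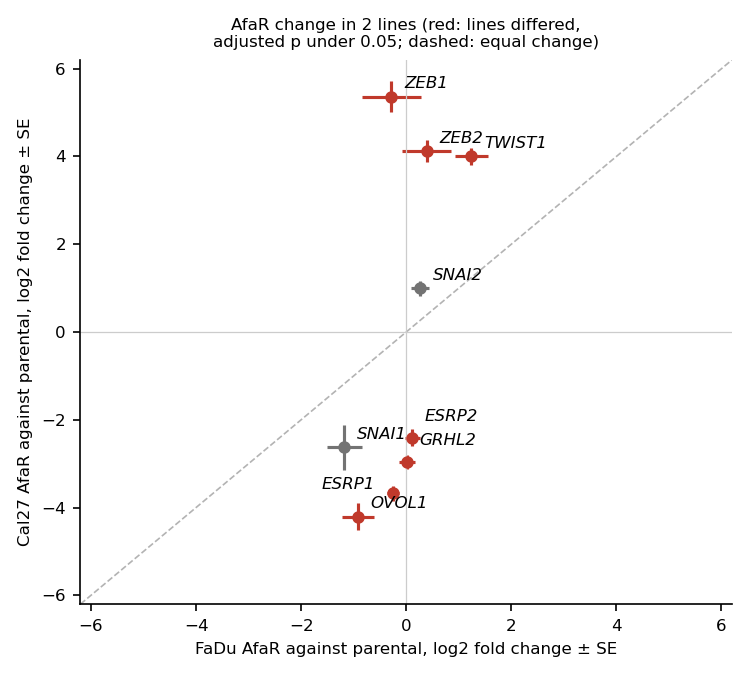
Log2 fold change against parental cells in FaDu AfaR (x) and Cal27 AfaR (y), with SE bars, for the 9 tested members. Red marks the 7 members whose change differed between the lines, and the dashed line marks equal change. ZEB1, ZEB2 and TWIST1 lie above the line and ESRP2, GRHL2, ESRP1 and OVOL1 below it.

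The parental lines differed in 4 of 9 members, where 55.6% of all genes passed, 28.7% higher and 26.8% lower in Cal27. With a log2 fold change over 1 also required, 0 of 9 passed, beside 31.6% of all genes. ESRP2 was higher in Cal27 than in FaDu (log2 fold change 0.84, SE 0.17, edgeR adjusted p = 0.00120). ESRP1 (-0.79), GRHL2 (-0.56) and SNAI2 (-0.56) were lower in Cal27, but under ERCC scaling, which moved the median of all genes from 0.037 to 0.617 and the calls from 4668 higher and 4354 lower to 7917 and 1714, GRHL2 and SNAI2 came to 0.03 and 0.02 and ESRP1 to -0.21 without passing. The SNAI2 call was kept in 1 of 4 fits without a library and the GRHL2 call in 3 of 4. ZEB1, ZEB2, TWIST1 and SNAI1 did not pass under either scaling, with TMM values between -0.54 and 0.14, so no difference in these 4 factors before selection was detectable at this depth.

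Per kilobase of exon, the order of the members in the parental lines was the same except that GRHL2 and ESRP2 changed places. ESRP1 was highest, at 39.1 CPM per kb in FaDu parental and 22.6 in Cal27 parental, and SNAI2 was next, at 20.3 and 13.8. SNAI2 thus stood beside GRHL2 (18.7 and 12.7 CPM per kb) in cells where the squamous markers were high, while ZEB1 was at 0.0643 and 0.0438 and ZEB2 at 0.0662 and 0.0725 CPM per kb. In Cal27 AfaR the order was led by SNAI2 at 27.5 and TWIST1 at 24.8 CPM per kb. ESRP2 (2.59), ZEB1 (1.84), ESRP1 (1.76), GRHL2 (1.63) and ZEB2 (1.26) followed. The length used is that of all annotated exons of a gene, 23707 bases for ZEB2 and 5563 for ESRP2. It is not the length of the transcripts expressed, so the order depends on the annotation. In Cal27 ErlR SNAI2 led at 46.6 CPM per kb, above ESRP1 at 23.7, with ZEB1 at 0.0906 and ZEB2 at 0.0936.

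Genes that SNAI and ZEB proteins repress or that GRHL2 activates were read from a list of 24 junction, polarity and epithelial genes. In Cal27 AfaR 21 of 24 fell and 0 rose, with a median log2 fold change of -1.71 beside 0.00 for all genes tested and 18.2% of them lower. The largest falls were in RAB25, a vesicle transport gene of polarised cells, from 21.1 and 28.9 to 1.94 and 1.39 CPM (log2 fold change -3.89, edgeR adjusted p = 1.61e-05), and AP1M2, an epithelial sorting adaptor, from 76.1 and 79.6 to 7.18 and 4.99 CPM (log2 fold change -3.67, edgeR adjusted p = 2.88e-06). In Cal27 ErlR 10 of 24 fell and 0 rose, with a median of -0.45 beside 15.3% of all genes lower. Neither count held in every fit without a library. TJP3 (-5.59), which ranged from 4.07 to 23.0 CPM between the parental libraries, and MUC1 (-4.32) fell most in Cal27 ErlR. The count was 4 without Cal27 parental replicate 2, 5 without ErlR replicate 1 and 7 or 8 without either of the others. In FaDu AfaR 2 of 24 rose, CDH1 by 0.69 and CDH3 by 0.51, and PKP3 fell by 0.35 on the log2 scale, with a median of -0.09. Both shares are below those of all genes, 10.4% higher and 7.5% lower. All 3 calls were lost without FaDu parental replicate 1, parental replicate 2 or AfaR replicate 2, when 0 of 24 passed. In FaDu ErlR the median was 0.03 and 0 of 24 passed edgeR's test, beside 4.18% of all genes. There 0 passed DESeq2's and 4 had an unadjusted p under 0.05. Under ERCC scaling 14 passed as higher, beside 5655 of all 15092 genes tested.

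Promoters of these genes are of interest because the SNAI and ZEB proteins bind the E-box CAGGTG, which reads CACCTG on the other strand. In the 250 bases before a RefSeq start, 17.5% of 35116 promoters held it on either strand, as did 68.4% of 19 starts of the 14 listed genes found in the promoter table. The list was written with known targets of these factors in it, so this share is not independent of them. Of these 14 genes, 11 held it at a start or more, and 9 of the 11 fell in Cal27 AfaR, with a median log2 fold change of -1.67. Of the 3 without it, 2 fell, with a median of -0.87. Whether the motif bears on the falls was not tested. Both genes with the largest falls in Cal27 AfaR held it, RAB25 once and AP1M2 in 3 places, given in capitals on GRCh38.p14. RAB25 is shown over the whole window, and AP1M2 over the 247 bases of it that hold no annotated exon.
RAB25 chr1:156060910-156061159, plus strand: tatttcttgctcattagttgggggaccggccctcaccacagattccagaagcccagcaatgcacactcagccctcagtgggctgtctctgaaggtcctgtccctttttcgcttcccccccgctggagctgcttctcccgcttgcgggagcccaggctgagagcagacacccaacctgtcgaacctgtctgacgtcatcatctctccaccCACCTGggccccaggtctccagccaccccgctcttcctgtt
AP1M2 chr19:10587316-10587562, minus strand: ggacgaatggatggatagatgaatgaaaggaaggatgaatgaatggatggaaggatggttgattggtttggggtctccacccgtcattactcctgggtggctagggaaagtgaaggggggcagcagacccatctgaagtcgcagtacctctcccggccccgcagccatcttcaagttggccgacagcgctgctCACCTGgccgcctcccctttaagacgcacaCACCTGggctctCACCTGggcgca

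Mesenchymal genes were read from a list of 18. In Cal27 AfaR 12 of 16 tested rose and 0 fell, with a median log2 fold change of 2.79 beside 19.5% of all genes higher. VIM, the intermediate filament of mesenchymal cells, went from 23.0 and 21.8 to 1122 and 1268 CPM (log2 fold change 5.74, edgeR adjusted p = 4.18e-07) and FBN1, a microfibril gene, from 1.28 and 1.22 to 58.5 and 62.6 CPM (5.59). In Cal27 ErlR the direction was the other way, with 11 of 16 lower and 1 higher, a median of -1.67, and 15.3% of all genes lower. CDH11 (-3.52) and COL6A2 (-3.10) fell most, and AXL, a receptor tyrosine kinase, rose by 0.98. SNAI2 was thus highest in a model in which most listed mesenchymal genes fell. In FaDu AfaR 7 of 15 rose with a median of 0.75, led by COL6A2 (2.32) and CDH11 (2.30), and SPARC fell by 1.32. Of all genes, 10.4% were higher and 7.5% lower in FaDu AfaR, and 2.58% were higher and 1.6% lower in FaDu ErlR. The count of 7 was 1 without FaDu parental replicate 1 or AfaR replicate 2, 3 without parental replicate 2 and 7 without AfaR replicate 1. In FaDu ErlR 1 of 15 passed edgeR's test, SPARC at 1.57, with a median of 0.54, and it was lost in each fit without a library. Under ERCC scaling 8 passed as higher, beside 5655 of all 15092 genes tested.

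**Figure D4:**
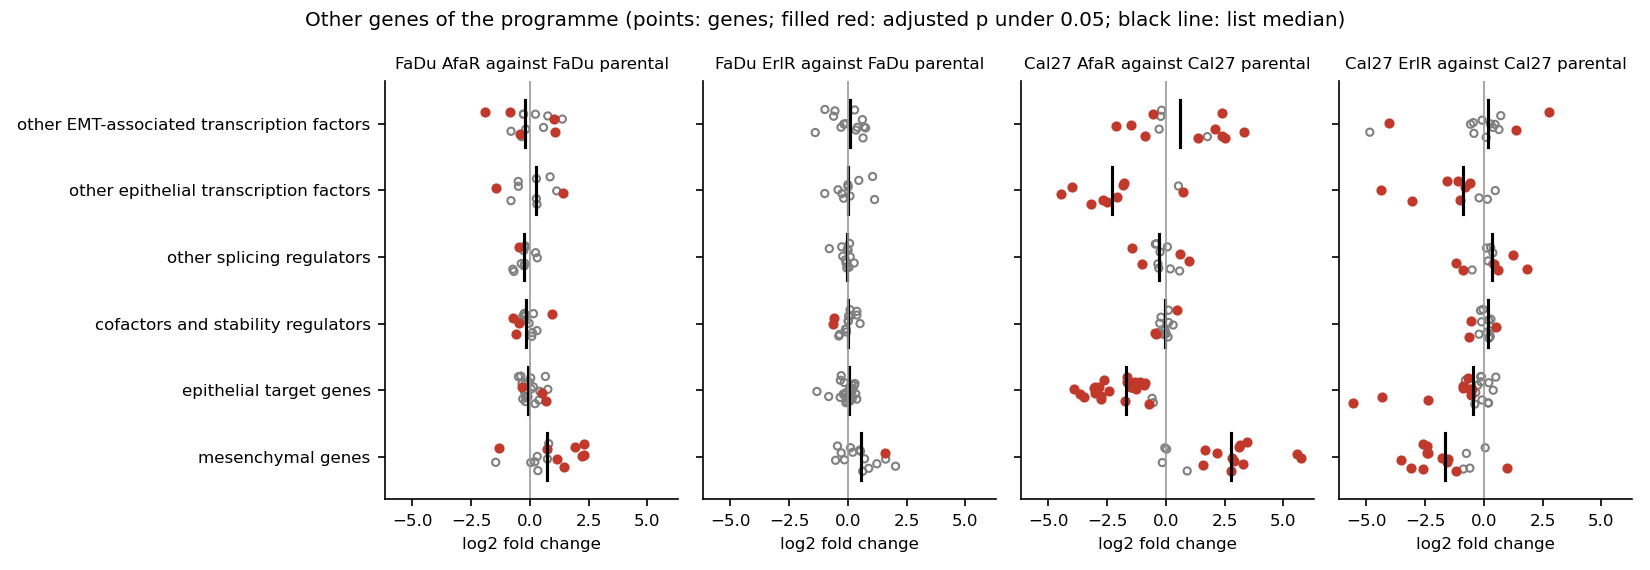
Log2 fold change of the genes of 6 lists in the 4 comparisons with parental cells, each point a gene and each black bar the median of a list. Red points passed at an edgeR adjusted p under 0.05. In Cal27 AfaR the epithelial target genes lie to the left and the mesenchymal genes to the right, and in Cal27 ErlR both lists have medians below 0.

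Other transcription factors of epithelial cells mostly fell in Cal27 AfaR. Of 10 tested, 8 fell and 1 rose, with a median of -2.29, beside 18.2% of all genes lower and 19.5% higher. In this list the fits without a library also gave 8 lower. GRHL1, the paralogue of GRHL2, fell by 4.01 on the log2 scale (edgeR adjusted p = 1.35e-05) and SPDEF went from 14 and 34 reads to 1 in each library. KLF4, a factor of differentiation and stemness, rose by a log2 fold change of 0.72. In Cal27 ErlR 7 of 10 fell and 0 rose, beside 15.3% and 12.3% of all genes, with a median of -0.91, led by SPDEF and by ELF3 (-3.08), and 4 fell without Cal27 parental replicate 2, whereas OVOL1, GRHL2 and both ESRP genes had values above 0 and did not pass. In FaDu AfaR KLF4 rose by 1.39 and KLF5 fell by 1.46 on the log2 scale, 1 of 10 in each direction beside 10.4% and 7.5% of all genes, with a median of 0.28, and without parental replicate 1 or AfaR replicate 2 none of the list rose. In FaDu ErlR the median was 0.01 and 0 of 10 passed edgeR's test, beside 4.18% of all genes, with 3 at an unadjusted p under 0.05 and 1 passing DESeq2's.

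Other factors linked to EMT were read from a list of 18, of which 14 were tested in each comparison with parental cells. In Cal27 AfaR 6 of 14 rose and 4 fell, beside 19.5% and 18.2% of all genes, with a median of 0.59. Those that rose were led by FOXC2 (3.33) and RUNX2 (2.53), and those that fell by FOXQ1 (-2.10) and HMGA2 (-1.48). In Cal27 ErlR LEF1 (2.77) and HMGA2 (1.39) rose, and PRRX2 passed as lower on 6 and 15 parental reads against 0 and 1, with a median of 0.19 over the 14. These 3 of 14 stand beside 27.6% of all genes, and the PRRX2 call was lost with DESeq2, which passed 0 as lower, and in 3 of 4 fits without a library. The count of 2 higher was 3 without ErlR replicate 1 and 4 without ErlR replicate 2. In FaDu AfaR RUNX2 (1.09) and ETS1 (1.03) rose and 3 fell, led by FOXQ1 (-1.92) and FOXC1 (-0.86), together 5 of 14 beside 17.9% of all genes, with a median of -0.22. RUNX2 rose and FOXQ1 fell in AfaR cells of both lines, but in FaDu AfaR none of the 14 passed as higher in any fit without a library and between 0 and 3 passed as lower, 0 without parental replicate 1, 1 without AfaR replicate 2 and 2 without parental replicate 2. In FaDu ErlR the median was 0.11. In FaDu ErlR 0 of 14 passed edgeR's test, beside 4.18% of all genes, with 4 at an unadjusted p under 0.05 and 1 passing DESeq2's. Under ERCC scaling 6 passed as higher, beside 5655 of all 15092 genes tested.

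Splicing regulators other than the ESRP genes had median log2 fold changes of -0.27 in Cal27 AfaR, 0.34 in Cal27 ErlR, -0.24 in FaDu AfaR and -0.03 in FaDu ErlR. In Cal27 AfaR 2 of 12 rose, PTBP2 (1.00) and RBFOX2 (0.59), and 2 fell, CELF2 (-1.44) and RBM47 (-1.02), together 4 of 12 beside 37.6% of all genes. Without Cal27 parental replicate 1 or AfaR replicate 1 the counts were 1 and 1, and without AfaR replicate 2 they were 2 and 1. In Cal27 ErlR 4 rose, led by MBNL3 (1.82) and PTBP2 (1.24), and 2 fell, RBM47 (-1.18) and MBNL2 (-0.90), of which 1 was left without parental replicate 2 or ErlR replicate 1. These 6 of 12 stand beside 27.6% of all genes, while in FaDu ErlR 4.18% of all genes passed. In FaDu AfaR HNRNPM fell by 0.45, 1 of 12 beside 17.9% of all genes. Among the fits that left a library out, this call was kept only without AfaR replicate 1. In FaDu ErlR 0 of 12 passed edgeR's test and 0 DESeq2's, with 1 at an unadjusted p under 0.05. Under ERCC scaling 8 passed as higher there, beside 5655 of all 15092 genes tested. The fall of RBM47 and the rise of PTBP2 were found in both resistant Cal27 models, while ESRP1 and ESRP2 fell in Cal27 AfaR and did not pass in Cal27 ErlR.

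The genes around each member were read in the same way. Among the 20 tested genes nearest to each member, 10 on each side, the median log2 fold change in Cal27 AfaR lay between -0.49, around TWIST1, and 0.38, around ZEB1. Around TWIST1, 3 of 20 neighbours were higher and 8 lower in Cal27 AfaR, beside 19.5% and 18.2% of all genes. Between the parental lines 17 of the 20 nearest tested genes were higher in Cal27, beside 28.7% of all genes. Their median was 2.15, while TWIST1 itself was at 0.01. GRHL2, ESRP1 and SNAI2 all lie on chromosome 8, and in Cal27 AfaR the first 2 were lower and SNAI2 higher.

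The genes whose levels were most like each member were sought by Pearson's r of log2(CPM + 1) over the 12 libraries, among genes that averaged 5 CPM or more, as a description only. For ZEB1 these were VIM (r = 0.984), OLFML2B and FBN1, and without the 2 Cal27 AfaR libraries r over the other 10 was -0.056 with VIM, -0.011 with OLFML2B and 0.035 with FBN1, so the likeness rested on those 2 libraries. For ZEB2 they were OLFML2B (0.988), GAS1 (0.985) and LUM (0.981), with 0.61, 0.715 and 0.058 over those 10 libraries. LUM, a fibroblast marker, averaged 33.5 CPM in Cal27 AfaR and 0.116 CPM in Cal27 parental. For TWIST1 they were BICC1 (0.980), MAP1B and CCN3, with 0.893, 0.887 and 0.777 over the 10 libraries. ESRP1 was most like EPHA1 (0.994), AP1M2 (0.991) and MARVELD3 (0.988), a tight junction gene, with r = 0.883, 0.879 and 0.815 without Cal27 AfaR. GRHL2 was most like EPHA1 (0.985), LPAR3 (0.98) and AP1M2 (0.98), which came to 0.634, 0.499 and 0.388 without Cal27 AfaR. OVOL1 was most like DOK7 (0.984, and 0.939 without Cal27 AfaR), ESRP2 like SH2D3A (0.978, and 0.926), SNAI2 like BMP2K (0.936, and 0.942) and SNAI1 like THEM4 (0.948, and 0.922).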

How the data were processed

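Poly(A)-selected RNA with ERCC spike-ins was sequenced from 12 libraries in 6 groups. Per the study's methods and processing notes, reads were trimmed with Trimmomatic 0.36, aligned to GRCh38 with STAR 2.5.2b and counted with featureCounts of Subread 1.5.2. The authors deposited raw counts per gene, and their normalized tables were not used. Groups came from the labels. CPM is the count per 1000000 counts on the 58051 genes of the library, after the library size was multiplied by its TMM factor. These factors came from the 12 libraries together and lay between 0.9343 and 1.111. The 92 spike-ins stayed out. Tests used edgeR 4.0.16 under R 4.3.3 (TMM, filterByExpr, glmQLFit, glmQLFTest) in 1 fit per line of 6 libraries with 3 residual degrees of freedom, and in 1 fit of 12 libraries for the parental lines and interactions. Benjamini-Hochberg adjustment covered 15092 genes in FaDu, 15269 in Cal27 and 16240 in all. On simulated data with 200 genes set to a log2 fold change of 2, between 69% and 91% of them were recovered over the 7 comparisons. Smaller changes were not simulated, so this gives no rate for them. Between 16334937 and 23399259 counts per library set the precision. Alternatives were DESeq2 1.42.0, other scalings, filters, fits and thresholds, a replicate block and leaving out in turn each library of the groups compared. The 10 members and the 7 other lists were chosen with earlier results of these data known. All members were named, and of each list the 2 largest rises and falls among genes that passed in the comparisons with parental cells, with host and antisense transcripts. How far replicates were separate cultures was not given in the sources used here, so p-values measure the spread between these libraries. Promoter and microRNA sequences came from RefSeq, in which 3 of the 10 members had a promoter entry, and 3′ UTRs from GENCODE 44.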

Additional observations from a re-analysis of the deposited data

Results flagged for a closer look

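The AfaR change differed between the lines, by the interaction test, for 7 members. Taken as FaDu less Cal27 on the log2 scale, it came to -5.62 for ZEB1, -3.71 for ZEB2, -2.74 for TWIST1, 3.00 for GRHL2, 3.32 for OVOL1, 3.44 for ESRP1 and 2.54 for ESRP2. These 7 passed in every one of the fits that left out a library. The ErlR change differed for SNAI2, at -1.37, and this also passed in every such fit.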

How the results depend on the processing

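In Cal27 AfaR, 9 of 9 members passed in the reported fit and between 6 and 10 under the alternatives, with 9 in each fit without a library. At least 10 counts in every library left 6 members to test, and without a filter PRRX1 also passed. In FaDu AfaR the count of 2 fell to 1 with DESeq2, with upper-quartile scaling, with ERCC scaling and with the replicate block, each time TWIST1, and was 0 in each fit without a library. Without a filter it was 3, OVOL1 added, and with all 12 libraries OVOL1 stood in place of SNAI1. In FaDu ErlR the count of 0 became 1 with DESeq2, 4 with ERCC scaling, 2 without a filter, 1 with at least 10 counts in every library and 1 in the fit of all 12 libraries. In Cal27 ErlR the count of 2 was 1 with at least 10 counts and 1 in each fit without a library, in which SNAI1 was lost or not tested. DESeq2 passed SNAI2 and GRHL2 there, and 3 passed, GRHL2 added, with all 12 libraries, with median-of-ratios factors and without a filter. Between the parental lines 4 became 0 with a log2 fold change over 1 required and 2, ESRP2 and OVOL1, with ERCC scaling. For the AfaR change between lines the count of 7 was between 5 and 8. For the ErlR change between lines 1 became 2 with ERCC scaling and without a filter, and was between 1 and 2 without a library, 2 without FaDu ErlR replicate 1. Same-numbered replicates did not deviate together, with correlations between -0.173 and 0.105, so the numbers were not taken as pairs. The replicate block gave 1 member in FaDu AfaR and 3 between the parental lines, and the same count as reported elsewhere.

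With ERCC scaling, the log2 value between the parental lines turned to 0.029 for GRHL2, 0.019 for SNAI2 and 0.036 for ZEB1, in FaDu ErlR to 0.366 for GRHL2, 0.453 for OVOL1 and 0.216 for ZEB2, and the ErlR difference between lines to 0.404 for ESRP2 and 0.225 for ZEB1. Of these only GRHL2 and SNAI2 between parental lines had passed. Values close to 0 that never passed also changed sign. Between the parental lines SNAI1 came to -0.009 with DESeq2, -0.008 with median-of-ratios factors and -0.004 with only the compared groups, and TWIST1 to -0.004, -0.004 and 0.00. ESRP1 in Cal27 ErlR came to -0.018 with upper-quartile scaling, OVOL1 in FaDu ErlR to 0.004 with all 12 libraries and the ESRP2 ErlR difference to 0.002 with at least 10 counts. Without a library, the parental values ranged from -0.107 to 0.125 for SNAI1, -0.281 to 0.336 for TWIST1 and -0.248 to 0.61 for ZEB2. In FaDu AfaR they ranged from -0.042 to 0.30 for ESRP2, -0.036 to 0.068 for GRHL2, -0.928 to 0.129 for ZEB1 and -0.066 to 0.88 for ZEB2. In FaDu ErlR they ranged from -0.40 to 0.077 for GRHL2, -0.408 to 0.308 for OVOL1 and -0.782 to 0.197 for ZEB2, and in Cal27 ErlR from -0.105 to 0.187 for ESRP1. The ErlR differences ranged from -0.055 to 0.236 for ESRP1, -0.229 to 0.129 for ESRP2 and -0.592 to 0.144 for ZEB1. The cause of these changes was not tested. Counts limit SNAI1, PRRX1 and, outside Cal27 AfaR, ZEB1, which held at most 56, 16 and 16 reads.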

Other observations

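Among 15 cofactors of these factors and regulators of their stability, KDM1A, a histone demethylase that the SNAI proteins recruit, was the gene that passed as lower in all 4 resistant models. It was at 153 and 167 CPM in FaDu parental, 106 and 108 in FaDu AfaR and 107 and 107 in FaDu ErlR. In Cal27 it was at 177 and 191 CPM in parental cells, 129 and 139 in AfaR and 126 and 118 in ErlR. In FaDu it fell by 0.59 on the log2 scale in AfaR (edgeR adjusted p = 0.00813) and by 0.59 in ErlR (edgeR adjusted p = 0.0218). In Cal27 it fell by 0.46 in AfaR (edgeR adjusted p = 0.0166) and by 0.63 in ErlR (edgeR adjusted p = 0.00604). The models of a line share their parental libraries. Under ERCC scaling the values in FaDu, -0.41 in AfaR and -0.10 in ErlR, did not pass. Without a single library, AfaR cells passed in 2 of 4 fits in each line, and ErlR cells in 0 of 4 in FaDu and 3 of 4 in Cal27. The medians of the list lay between -0.17 and 0.17. In FaDu 3 of 15 fell in AfaR and 2 of 15 in ErlR, beside 7.5% and 1.6% of all genes. In Cal27 2 of 14 tested fell in AfaR and 2 of 14 in ErlR, beside 18.2% and 15.3% of all genes. The share of all genes that passed as lower in all 4 models was not counted. Of the other calls in this list, PRKD1 in FaDu AfaR, SETDB1 in FaDu ErlR, CTBP1 in Cal27 AfaR and FBXL14 in Cal27 ErlR were lost in each fit without a library.

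TWIST2, the paralogue of TWIST1, differed between the lines. It held between 226 and 338 reads in the 6 FaDu libraries and 0 or 1 in the 6 Cal27 libraries, Cal27 AfaR included.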
